A study of Mus musculus with 6 samples.

Results

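The genes described here are 45 genes of DNA replication, listed by name from what their products do, with earlier results of these arrays known. They comprise 9 genes of origin licensing, 14 grouped with the replicative helicase and its activation, and 10 of the polymerases, primase and single-strand binding protein. A further 6 are of the sliding clamp and its loader, 2 of Okazaki fragment processing, 3 of nucleotide supply and 1 is a checkpoint kinase. The 14 include Mcm8, an MCM relative that works in recombination repair. All 45 were measured, among 19937 genes in all. The arrays hold total RNA from c-kit-positive cells and from c-kit-negative cells, 3 arrays of each, with the replicates labelled as biological. Both populations came from CD1 mice at E11.5, from the part of the embryo that holds the aorta, gonads and mesonephros (AGM), were sorted as CD31-positive, CD45-negative and Ter119-negative, and carry no transgene or treatment in the labels. The c-kit protein, by which they were separated, is a receptor tyrosine kinase on the cell surface. How many embryos went into each sample is not given in the sources used here, so p-values measure the spread between these samples.

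The AGM region is where the first haematopoietic stem cells emerge from the ventral wall of the dorsal aorta in the mouse embryo, and it also holds the migrating and settling primordial germ cells. Before a cell copies its genome, the origin recognition complex (ORC) binds origins, and CDC6 and CDT1 load the MCM2-7 ring on the DNA, a step called licensing. In S phase the kinase CDC7 and other factors turn the ring into the active helicase by adding CDC45 and the GINS complex. Polymerase alpha with primase then starts each strand, polymerases epsilon and delta extend it with the sliding clamp PCNA, and nuclease and ligase join the lagging-strand pieces. Many of these genes are known targets of E2F transcription factors, which raise their transcription towards S phase. RNA levels of this set are therefore often read beside the cycling of a cell population.

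Values are log2 expression values, made by the authors with RMA, and a difference is the mean of the c-kit-positive arrays minus the mean of the c-kit-negative arrays. Each difference was tested with limma over all 19937 genes, and a gene is said to have risen or fallen where its Benjamini-Hochberg adjusted p was under 0.05. Kit itself read 9.59, 9.54 and 9.53 in c-kit-positive cells, against 8.27, 8.21 and 8.19 in c-kit-negative cells, and rose by 1.33 (limma adjusted p = 0.000453). The populations differed widely beyond replication. All 15 pan-endothelial markers fell in c-kit-positive cells (median difference -2.31), among them Kdr and Tek, and the median of that list ran from 5.66 to 6.04 over the c-kit-positive arrays and from 8.52 to 8.67 over the c-kit-negative arrays. Of 15 primordial germ cell markers 12 rose, Sycp3 and Dazl with the smallest p, and the list's median ran from 7.36 to 7.85 in c-kit-positive cells and from 5.99 to 6.13 in c-kit-negative cells. Of 11 haematopoietic progenitor markers 6 rose (median 0.60). Of 10 macrophage markers 3 fell (median -0.72), of 7 erythroid markers 3 fell (median -0.08), of 4 platelet markers 2 fell (median -1.68), and of 10 mesenchyme and smooth muscle markers 7 fell (median -1.54). The values carry no detection calls, so no marker can be given as absent. The part of these cell types in the replication results was not tested, and in sorted bulk RNA fewer cells of a type and less RNA per cell cannot be told apart.

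Of the 45 genes 10 rose and 0 fell, beside 2.71% of all genes that rose and 4.70% that fell. The 10 were the licensing genes Orc1, Orc2 and Gmnn, the helicase genes Gins1, Mcm8, Mcm10 and Gins4, the polymerase genes Prim1 and Pole, and the checkpoint kinase gene Chek1. Their differences ran from 0.62 to 1.22, with a median of 0.84. Over all 45 genes the difference ran from -0.03 to 1.22 with a median of 0.43, which is 1.34-fold, and 44 of 45 were above 0. Over all genes the median difference was 0.07, and 61.1% of differences were above 0. In 25 of the 45 genes the 3 c-kit-positive values all lay above the 3 c-kit-negative values, and in 0 genes below them. Over all genes that separation held for 16.2% upward and 10.6% downward.

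The 35 genes that did not pass the test lay on the same side with 1 exception, Gins3. Of these, 34 were above 0, with a median of 0.39, and for 14 the 95% confidence interval lay above 0. Over all 45 genes the interval lay above 0 for 24, beside 2264 of the 19937 genes. The interval stayed below a 2-fold rise for 26 of the 35 and reached it for 9. Of all 18460 genes that did not pass, it stayed below for 17442 and reached it for 1018. Gins4, at an adjusted p of 0.0420 by limma, stood just inside the threshold, and Rpa1, at 0.0514, just outside. The genes near the threshold thus differed little in size.

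**Figure D1:**
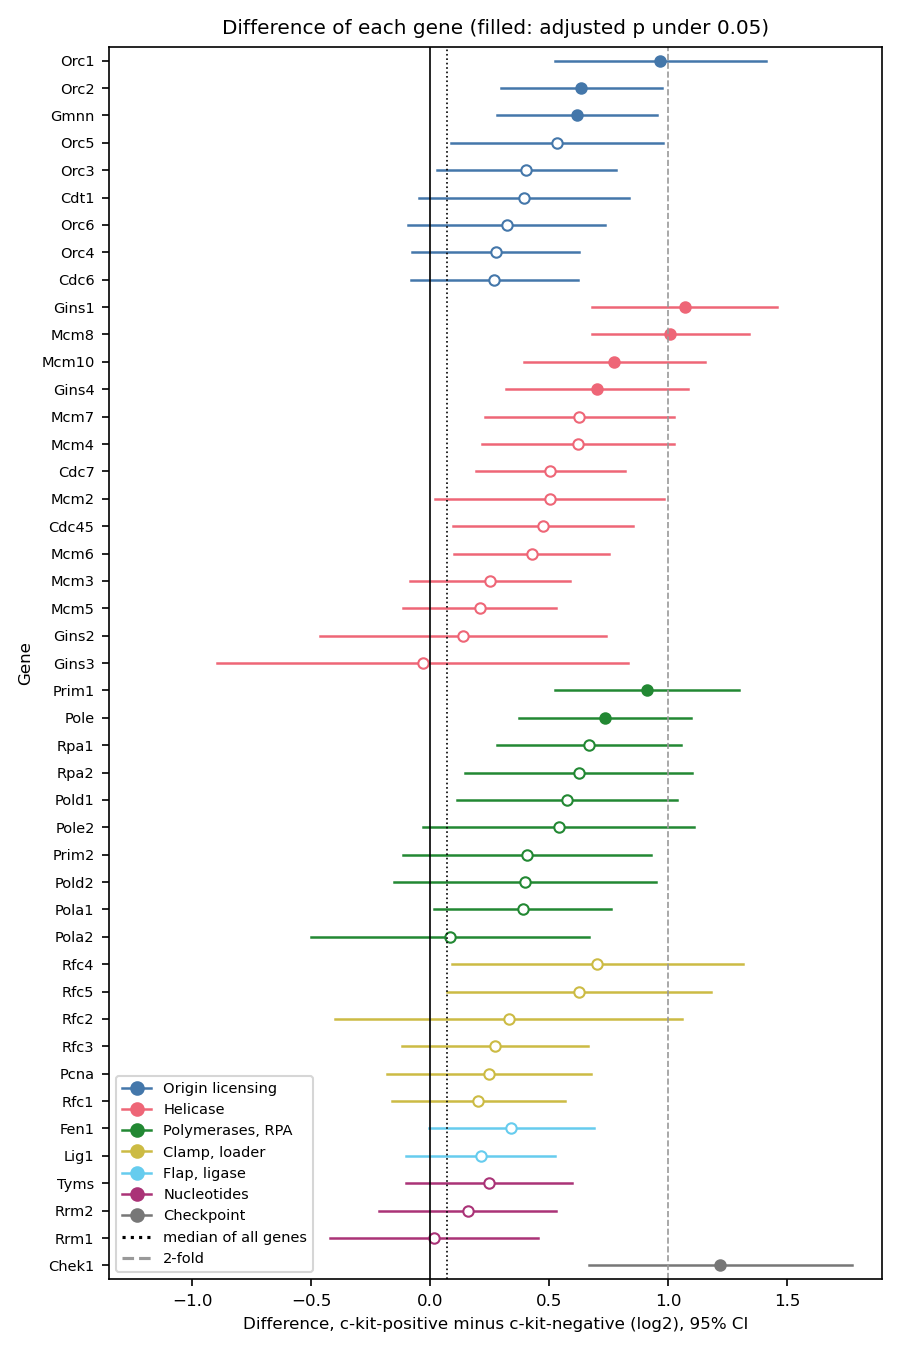
Difference of each of the 45 genes, c-kit-positive minus c-kit-negative, in log2 units, with its 95% confidence interval from limma. Colours mark the role groups, filled points mark the 10 genes with adjusted p under 0.05, the dotted line is the median of all genes (0.07) and the dashed line a 2-fold rise. Points run from -0.03 for Gins3 to 1.22 for Chek1.

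Of the 9 origin licensing genes 3 rose, beside 2.71% of all genes, and the other 6 did not pass. Their differences ran from 0.27 to 0.97 with a median of 0.40, and all 9 were above 0, beside 61.1% of all genes. In 6 the arrays of the populations did not overlap, beside 16.2% of all genes. Orc1 encodes the largest ORC subunit, an ATPase. Orc1 read 7.62, 7.86 and 7.73 in c-kit-positive cells, against 7.18, 6.53 and 6.60 in c-kit-negative cells. Every c-kit-positive value was above every c-kit-negative one, and the c-kit-negative values spread more widely, at 6.77 ± 0.36 (SD, n = 3) beside 7.74 ± 0.12 in c-kit-positive cells. The difference was 0.97 with an SE of 0.19, a 1.96-fold rise (limma adjusted p = 0.0205).

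Orc2, a core ORC subunit, read 8.30, 8.42 and 8.70 in c-kit-positive cells, against 7.76, 7.85 and 7.89 in c-kit-negative cells. The arrays did not overlap, and the difference was 0.64 with an SE of 0.15, which is 1.55-fold (limma adjusted p = 0.0378). Gmnn encodes geminin, the inhibitor that holds CDT1 back after origins have fired and so bars a second licensing in the same cycle. It read 8.10, 7.93 and 8.19 in c-kit-positive cells, against 7.57, 7.27 and 7.52 in c-kit-negative cells, again without overlap. Its difference was 0.62 with an SE of 0.15, a 1.53-fold rise (limma adjusted p = 0.0417). The inhibitor's RNA thus moved the same way as that of 2 ORC subunits.

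The loading factors themselves did not pass. Cdt1, geminin's target, differed by 0.40 with a 95% interval from -0.05 to 0.84. Cdc6, the ATPase that loads the ring together with CDT1, differed by 0.27. Its interval from -0.08 to 0.62 lay below a 2-fold rise in array value. Of the other ORC subunits, Orc5 differed by 0.53 (0.09 to 0.98) and Orc3 by 0.40 (0.03 to 0.78), Orc6 by 0.32 (-0.09 to 0.74) and Orc4 by 0.28 (-0.08 to 0.63), all short of the threshold. Over the 6 ORC genes the median difference was 0.47, and 5 of 6 separated the arrays without overlap, beside 16.2% of all genes.

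The start regions of Orc1 and Cdc6 are shown because one gene of this step passed the test and the other did not, while both hold letters of the E2F motif. The windows are RefSeq sequence of build GRCm38.p6, from 250 bases before to 50 bases after the gene's start, on the gene's strand. Capitals mark a match to TTTCCCGC, TTTCGCGC, TTTGGCGC or TTTGCCGC on either strand, letters that E2F factors are known to bind. Orc1 is at chr4:108579204-108579503 on the plus strand, with its match starting 27 bases before the start. Cdc6 is at chr11:98907901-98908200 on the plus strand, with its match starting 138 bases before the start. A match is a description of the letters and not of binding in these cells.
Orc1: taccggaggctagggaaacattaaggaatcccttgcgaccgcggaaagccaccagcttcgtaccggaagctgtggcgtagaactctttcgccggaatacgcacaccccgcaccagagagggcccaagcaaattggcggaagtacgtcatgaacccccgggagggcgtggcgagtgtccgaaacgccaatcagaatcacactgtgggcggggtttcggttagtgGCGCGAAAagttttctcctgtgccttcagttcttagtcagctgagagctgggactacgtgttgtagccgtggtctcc
Cdc6: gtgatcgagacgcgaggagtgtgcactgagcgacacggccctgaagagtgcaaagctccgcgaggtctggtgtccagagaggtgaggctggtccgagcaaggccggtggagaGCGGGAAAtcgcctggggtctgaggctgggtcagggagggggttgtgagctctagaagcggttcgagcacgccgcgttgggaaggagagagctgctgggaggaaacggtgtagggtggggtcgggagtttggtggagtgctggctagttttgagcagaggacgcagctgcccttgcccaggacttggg

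The helicase genes had 4 of 14 that rose, beside 2.71% of all genes. The GINS genes held both the largest and the smallest difference of the group. Of the MCM2-7 ring 0 of 6 passed, which is little apart from 2.71% of all genes and so is no result about the ring. The median difference was 0.46 over the ring and 0.42 over the GINS genes. Over all 14 genes it was 0.50, and in 10 of 14 the arrays did not overlap, beside 16.2% of all genes. Gins1 encodes the GINS subunit PSF1. It read 9.08, 9.10 and 9.05 in c-kit-positive cells, against 8.31, 7.999 and 7.71 in c-kit-negative cells. The c-kit-positive arrays were nearly level, at 9.08 ± 0.03, and the c-kit-negative arrays averaged 8.01 ± 0.30 (SD, n = 3 each). The difference was 1.07 with an SE of 0.17, or 2.10-fold (limma adjusted p = 0.00718).

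Gins4, which encodes the GINS subunit SLD5, read 9.56, 9.62 and 9.50 in c-kit-positive cells, against 8.83, 8.59 and 9.16 in c-kit-negative cells. There was no overlap, and the difference was 0.70 with an SE of 0.17, a 1.62-fold rise (limma adjusted p = 0.0420). The other GINS genes did not pass, and their c-kit-positive arrays were far apart. Gins3 read 6.13, 5.43 and 7.15 in c-kit-positive cells, against 6.06, 6.52 and 6.22 in c-kit-negative cells, and its SD of 0.86 over the c-kit-positive arrays was the widest of all 45 genes. Gins2 read 7.75, 8.77 and 8.71 in c-kit-positive cells, against 8.40, 8.15 and 8.26 in c-kit-negative cells. For both genes the populations overlapped. The 95% intervals, from -0.89 to 0.83 for Gins3 and from -0.47 to 0.74 for Gins2, lay below a 2-fold rise in array value. They leave smaller differences of either sign.

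Mcm8 and Mcm10 share a name with the ring but are not part of it. Mcm8 encodes an MCM relative that works with MCM9 in recombination repair and is needed for germ cells in the mouse. It read 6.94, 7.11 and 6.85 in c-kit-positive cells, against 5.95, 6.11 and 5.82 in c-kit-negative cells. The means were 6.97 ± 0.13 in c-kit-positive cells and 5.96 ± 0.14 in c-kit-negative cells (n = 3 arrays each, SD). The gap between the populations was several times the spread within either, with a difference of 1.01, an SE of 0.14 and a fold of 2.01 (limma adjusted p = 0.00419, the smallest of the 45). Its partner Mcm9, which is not among the 45, read 6.11, 6.08 and 6.35 in c-kit-positive cells, against 5.65, 5.59 and 5.11 in c-kit-negative cells. Mcm9 also rose, by 0.73 (limma adjusted p = 0.0477), although it did not pass in any fit with 1 array left out (adjusted p 0.0659 to 0.134).

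Mcm10 encodes a factor that helps the assembled helicase to start unwinding. It read 8.14, 8.07 and 8.15 in c-kit-positive cells, against 7.46, 7.03 and 7.56 in c-kit-negative cells. The populations did not overlap, and the difference was 0.77 with an SE of 0.17, which is 1.71-fold (limma adjusted p = 0.0274).

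The 6 genes of the MCM2-7 ring, the motor of the helicase, differed by 0.21 to 0.63 with a median of 0.46. Of these 6, 0 passed, beside 2.71% of all genes. Mcm7 had the largest difference, with 8.86, 8.61 and 9.04 in c-kit-positive cells, against 8.17, 8.01 and 8.46 in c-kit-negative cells. Those arrays did not overlap, the difference was 0.63 with a 95% interval from 0.23 to 1.02, and limma's adjusted p was 0.0699. Mcm4 differed by 0.62 (0.22 to 1.02), Mcm2 by 0.50 (0.02 to 0.98) and Mcm6 by 0.43 (0.10 to 0.75), each with arrays that did not overlap. Mcm3 differed by 0.25 (-0.09 to 0.59) and Mcm5 by 0.21 (-0.11 to 0.53), and their arrays overlapped. All 6 ring genes were above 0, beside 61.1% of all genes. In 4 of the 6 the arrays did not overlap, beside 16.2% of all genes. Intervals lay above 0 for 4 of the 6, beside 2264 of the 19937 genes.

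Of the activating genes, Cdc7, which encodes the kinase that phosphorylates the ring, read 7.08, 7.07 and 7.24 in c-kit-positive cells, against 6.48, 6.68 and 6.72 in c-kit-negative cells. Its difference was 0.51 with an interval from 0.19 to 0.82 (limma adjusted p = 0.0657). Cdc45, the helicase cofactor, differed by 0.48 (0.10 to 0.85), also without overlap and short of the threshold. Dbf4, the activating subunit of the CDC7 kinase and not one of the 45, rose by 0.68 (limma adjusted p = 0.0396), with 9.19, 9.37 and 9.35 in c-kit-positive cells, against 8.89, 8.56 and 8.42 in c-kit-negative cells.

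The windows of Mcm8 and Mcm5 are shown because both hold an E2F match while Mcm8 rose and Mcm5 had the smallest difference of the ring genes, with capitals marking the same letters. Mcm8 is at chr2:132815891-132816190 on the plus strand, and its match starts 40 bases after the start. Mcm5 is at chr8:75109259-75109558 on the plus strand, with 2 matches that overlap, starting 153 and 149 bases before the start. Mcm5, with both matches, did not pass the test.
Mcm8: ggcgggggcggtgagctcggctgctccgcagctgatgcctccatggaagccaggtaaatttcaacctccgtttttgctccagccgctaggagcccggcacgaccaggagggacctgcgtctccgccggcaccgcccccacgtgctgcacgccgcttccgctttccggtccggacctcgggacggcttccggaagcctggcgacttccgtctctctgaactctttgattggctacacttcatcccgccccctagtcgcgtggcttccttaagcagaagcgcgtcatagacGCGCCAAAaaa
Mcm5: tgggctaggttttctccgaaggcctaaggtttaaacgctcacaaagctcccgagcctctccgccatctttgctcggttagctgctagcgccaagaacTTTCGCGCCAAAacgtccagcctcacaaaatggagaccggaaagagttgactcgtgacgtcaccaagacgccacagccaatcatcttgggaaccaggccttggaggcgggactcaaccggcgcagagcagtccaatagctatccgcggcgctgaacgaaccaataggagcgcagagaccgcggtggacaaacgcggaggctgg

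**Figure D2:**
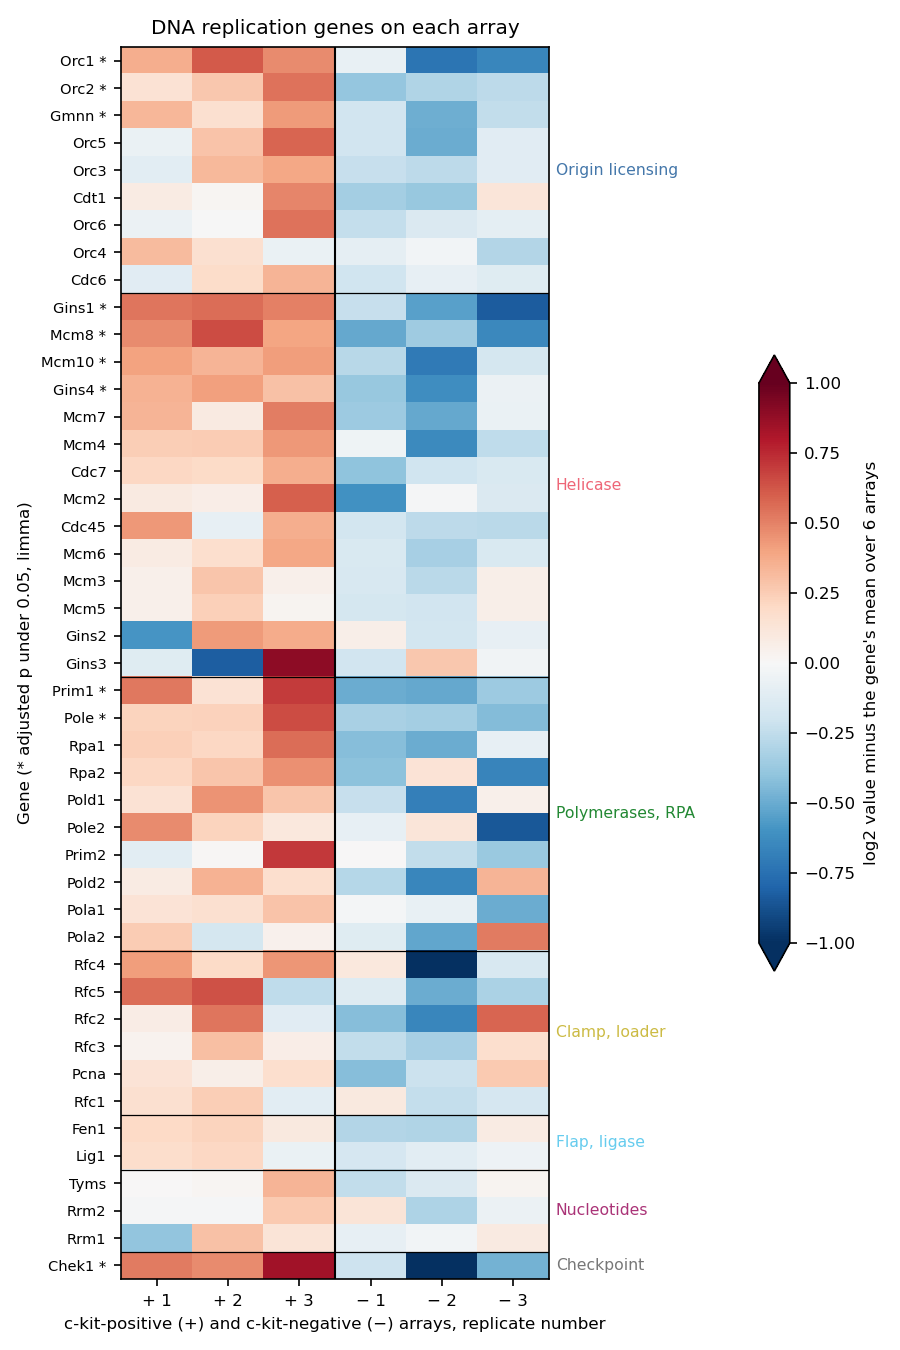
Heat map of the 45 genes (rows, by role group) on the 6 arrays (columns, c-kit-positive left), coloured by the log2 value minus the gene's mean over all 6 arrays, with colours clipped at 1 in either direction. The 3 c-kit-positive columns are mostly above the gene means and the 3 c-kit-negative columns mostly below. Rows with both signs within a population include Gins2, Gins3, Rfc2 and Rrm1.

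The polymerase genes had 2 of 10 that rose, beside 2.71% of all genes. Their median difference was 0.56, with a range from 0.08 to 0.91. All 10 were above 0, beside 61.1% of all genes, and 6 separated the arrays, beside 16.2% of all genes. Prim1 encodes the catalytic subunit of primase, which lays the RNA primers. It read 9.71, 9.33 and 9.89 in c-kit-positive cells, against 8.70, 8.68 and 8.83 in c-kit-negative cells. No values overlapped, and the means were 9.64 ± 0.28 in c-kit-positive cells and 8.73 ± 0.08 in c-kit-negative cells (n = 3 arrays each, SD). The difference was 0.91 with an SE of 0.17, a 1.88-fold rise (limma adjusted p = 0.0146).

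Pole encodes the catalytic subunit of polymerase epsilon, which copies the leading strand. It read 7.79, 7.79 and 8.22 in c-kit-positive cells, against 7.24, 7.22 and 7.13 in c-kit-negative cells, and the populations did not overlap. The difference was 0.73 with an SE of 0.16, which is 1.66-fold (limma adjusted p = 0.0272). Its accessory subunit gene Pole2 differed by 0.54 with an interval from -0.03 to 1.11 and did not pass.

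Within the complex of polymerase alpha and primase, Prim1 was the 1 of 4 genes that rose. The second primase gene Prim2 differed by 0.41 (-0.11 to 0.93), Pola1, the catalytic subunit, by 0.39 (0.02 to 0.76), and Pola2, the accessory subunit, by 0.08 (-0.50 to 0.67). Whether Prim1 moved more than its partners was not tested. Of the polymerase delta genes, Pold1, the catalytic subunit, differed by 0.58 (0.11 to 1.04) and Pold2 by 0.40 (-0.15 to 0.95). Neither passed, and the interval of Pold1 reached a 2-fold rise.

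Replication protein A coats the single strands behind the helicase. Rpa1, its large subunit, read 8.43, 8.40 and 8.75 in c-kit-positive cells, against 7.77, 7.70 and 8.11 in c-kit-negative cells, without overlap. The difference was 0.67 (0.28 to 1.05), and its limma adjusted p of 0.0514 was the nearest to the threshold from outside. With quantile normalization, without the 30% or the 50% of genes with the lowest means and with the mean of each gene's probe sets, Rpa1 passed. Rpa2 differed by 0.62 (0.15 to 1.10), also with separate arrays.

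Prim1 is shown as a gene that rose with no E2F letters in its window. It lies at chr10:128014965-128015264 on the plus strand, and the capitals mark a CCAAT box, the letters bound by the factor NF-Y, 9 bases before the start.
Prim1: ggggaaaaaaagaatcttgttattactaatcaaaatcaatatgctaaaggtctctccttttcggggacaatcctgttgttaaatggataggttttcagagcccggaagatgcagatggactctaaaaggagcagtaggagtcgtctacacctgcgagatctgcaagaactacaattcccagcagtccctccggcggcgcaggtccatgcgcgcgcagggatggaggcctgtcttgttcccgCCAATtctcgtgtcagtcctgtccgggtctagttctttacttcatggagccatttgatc

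The clamp and its loader, the fragment-processing enzymes and the nucleotide enzymes had 0 of 11 genes past the threshold. The 6 clamp genes differed by 0.20 to 0.70 with a median of 0.30, and 1 of 6 separated the arrays. That is near the 16.2% of all genes that did, and 0 of 11 past the threshold is little apart from the 2.71% of all genes, so neither count is a result about these genes. The clamp median was 0.53 without c-kit-negative replicate 3 and 0.19 without c-kit-negative replicate 2. The gene with separate arrays was Rfc4, a clamp loader subunit, which read 8.39, 8.16 and 8.41 in c-kit-positive cells, against 8.08, 6.97 and 7.81 in c-kit-negative cells. The c-kit-negative replicate 2 was more than a log2 unit below the lowest c-kit-positive value, while the other c-kit-negative arrays lay close to the c-kit-positive ones. The difference was 0.70 with an SE of 0.27 and an interval from 0.09 to 1.31 (limma adjusted p = 0.173).

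Rfc5 read 9.40, 9.48 and 8.59 in c-kit-positive cells, against 8.71, 8.35 and 8.53 in c-kit-negative cells, and differed by 0.63 (0.07 to 1.18). Rfc2 read 7.98, 8.44 and 7.79 in c-kit-positive cells, against 7.48, 7.25 and 8.49 in c-kit-negative cells, and differed by 0.33 (-0.40 to 1.06). Rfc5 had 1 c-kit-positive array inside the c-kit-negative range, and for Rfc2 all 3 c-kit-positive values lay between the lowest and the highest c-kit-negative value. Rfc3 differed by 0.27 (-0.12 to 0.67) and Rfc1, the large subunit, by 0.20 (-0.16 to 0.57).

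Pcna, the clamp itself and a common marker of proliferating cells, read 12.35, 12.27 and 12.38 in c-kit-positive cells, against 11.79, 12.00 and 12.48 in c-kit-negative cells. The populations overlapped, and the difference of 0.25 (-0.18 to 0.67) did not pass. Pcna was the 1 gene of the 45 with more than 1 probe set. Its second probe set read 11.72, 11.82 and 11.68 in c-kit-positive cells, against 11.69, 11.55 and 11.49 in c-kit-negative cells, and differed by 0.16. RefSeq lists pseudogene copies of Pcna, and whether either probe set also reads a copy was not tested.

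Fen1, the flap nuclease that trims Okazaki fragments, read 6.69, 6.71 and 6.59 in c-kit-positive cells, against 6.20, 6.20 and 6.58 in c-kit-negative cells. The lowest c-kit-positive and the highest c-kit-negative value nearly met without crossing, and the difference was 0.34 (-0.0049 to 0.69). Lig1, the ligase that seals the fragments, differed by 0.21 (-0.10 to 0.53). For both, a 2-fold rise lay outside the interval.

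The nucleotide enzymes had the smallest median difference of the role groups, at 0.16. That median was 0.042 without c-kit-negative replicate 2 and 0.067 without c-kit-positive replicate 3. Of the 3 genes 0 separated the arrays, which is little apart from 16.2% of all genes. Tyms, thymidylate synthase, read 8.21, 8.23 and 8.55 in c-kit-positive cells, against 7.96, 8.06 and 8.23 in c-kit-negative cells, and differed by 0.25 (-0.10 to 0.60). Rrm2, the regulated subunit of ribonucleotide reductase, differed by 0.16 (-0.21 to 0.53). Rrm1, the large subunit, read 8.87, 9.55 and 9.39 in c-kit-positive cells, against 9.18, 9.23 and 9.35 in c-kit-negative cells, and differed by 0.02 (-0.42 to 0.45). All 3 intervals lay below a 2-fold rise in array value. Differences between role groups were not tested.

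**Figure D3:**
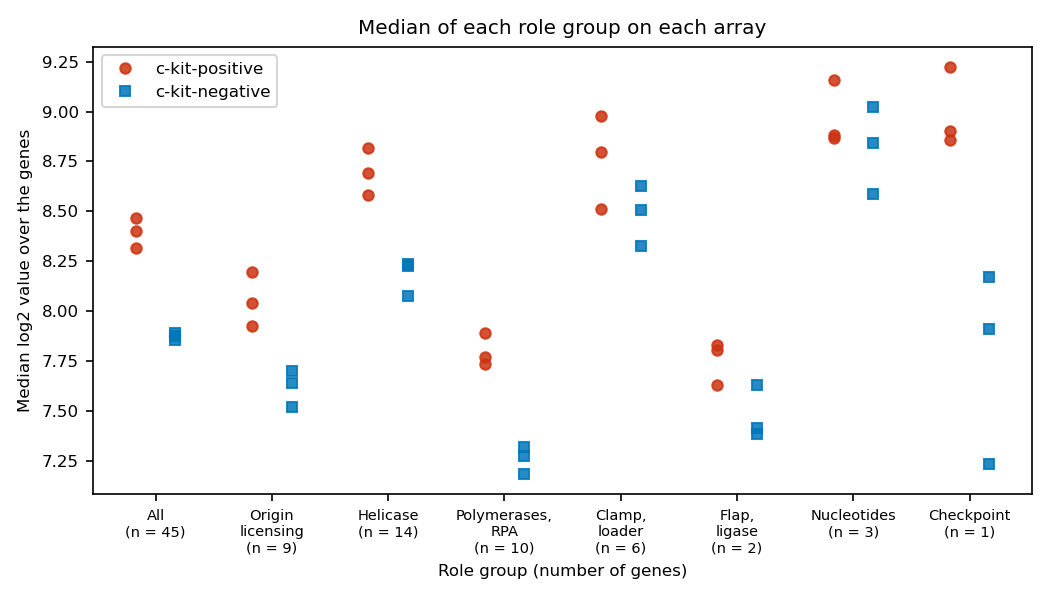
Median log2 value of the genes of each role group on each array, c-kit-positive (circles) left of c-kit-negative (squares). Over all 45 genes the medians were 8.32, 8.40 and 8.47 in c-kit-positive cells and 7.87, 7.85 and 7.89 in c-kit-negative cells, while the medians of the clamp group, the fragment-processing pair and the nucleotide group overlap. Levels of different groups come from different probe sets and are not compared.

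Chek1 had the largest difference of the 45. It encodes the kinase CHK1, which ATR activates at stalled forks and which restrains further origin firing. Chek1 read 8.90, 8.86 and 9.22 in c-kit-positive cells, against 8.17, 7.23 and 7.91 in c-kit-negative cells. The populations did not overlap, with means of 8.99 ± 0.20 in c-kit-positive cells and 7.77 ± 0.48 in c-kit-negative cells (n = 3 arrays each, SD). The difference was 1.22 with an SE of 0.24 and an interval from 0.67 to 1.77, a 2.33-fold rise (limma adjusted p = 0.0198). Atr, the upstream kinase and not one of the 45, read 8.06, 7.99 and 7.91 in c-kit-positive cells, against 7.07, 6.91 and 6.88 in c-kit-negative cells. Atr rose by 1.03, which is 2.05-fold (limma adjusted p = 0.00240).

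The array medians of the role groups show how far these small differences carry across a group. The licensing medians were 8.04, 7.93 and 8.19 in c-kit-positive cells, against 7.64, 7.70 and 7.52 in c-kit-negative cells. The helicase medians were 8.58, 8.69 and 8.82 in c-kit-positive cells, against 8.24, 8.08 and 8.22 in c-kit-negative cells. The polymerase medians were 7.73, 7.77 and 7.89 in c-kit-positive cells, against 7.18, 7.27 and 7.32 in c-kit-negative cells. In these 3 groups the populations did not overlap. The clamp medians were 8.80, 8.98 and 8.51 in c-kit-positive cells, against 8.63, 8.32 and 8.51 in c-kit-negative cells, and the nucleotide medians were 8.87, 8.88 and 9.16 in c-kit-positive cells, against 9.02, 8.59 and 8.84 in c-kit-negative cells. These 2 groups overlapped, and so did the pair of fragment-processing genes, whose lowest c-kit-positive and highest c-kit-negative medians were both 7.63.

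Within a population, single arrays were high or low for many of the genes at once. Among the c-kit-positive arrays, replicates 1, 2 and 3 held the highest value for 4, 16 and 25 of the 45 genes. They held the lowest for 19, 15 and 11. Among the c-kit-negative arrays, replicates 1, 2 and 3 were lowest for 10, 26 and 9 genes and highest for 14, 7 and 24. The same counts were not made over all genes, so they are not shown to be particular to the replication genes. The SD over 3 arrays had a median of 0.19 in c-kit-positive cells and 0.22 in c-kit-negative cells, beside 0.19 in c-kit-positive cells and 0.18 in c-kit-negative cells over all genes. It was larger in c-kit-negative cells for 27 of the 45 genes and in c-kit-positive cells for 18.

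With 1 array left out, the count of genes that rose ran from 4 to 7. Without c-kit-positive replicates 1, 2 and 3 it was 5, 5 and 4, and without c-kit-negative replicates 1, 2 and 3 it was 4, 4 and 7. These counts include genes outside the 10: Rfc5 passed without c-kit-positive replicate 3 (limma adjusted p = 0.0241), Rpa2 without c-kit-negative replicate 2 (0.0315) and Rpa1 without c-kit-negative replicate 3 (0.0463). Of the 10 themselves, 3 to 6 passed in each of these fits. Over all genes the count that rose ran from 276 to 369 in the same fits, below the 540 with all arrays. Mcm8 (adjusted p 0.0104 to 0.0200) and Gins1 (0.00743 to 0.0292) passed in all 6 of these fits. Chek1 passed in 4, and was lost without c-kit-positive replicate 1 (0.0537) or 3 (0.0685). Prim1 passed in 3, and was lost when replicate 1 of the c-kit-positive cells (0.0528), or replicate 1 (0.0546) or 2 (0.0513) of the c-kit-negative cells, was left out. Orc1 passed in 2, those without replicate 1 of either population, and its adjusted p was at most 0.0729 in the others. Pole passed in 2, those without c-kit-positive replicate 1 or 2 (at most 0.0859 in the others). Orc2 passed in 1, without c-kit-positive replicate 1 (at most 0.121 otherwise). Mcm10 and Gins4 passed in 1, without c-kit-negative replicate 3 (at most 0.0809 and 0.120 otherwise). Gmnn passed in 0 of 6 (0.0599 to 0.125). At an adjusted p under 0.01 with all arrays, 2 of 45 genes passed, Mcm8 and Gins1.

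**Figure D4:**
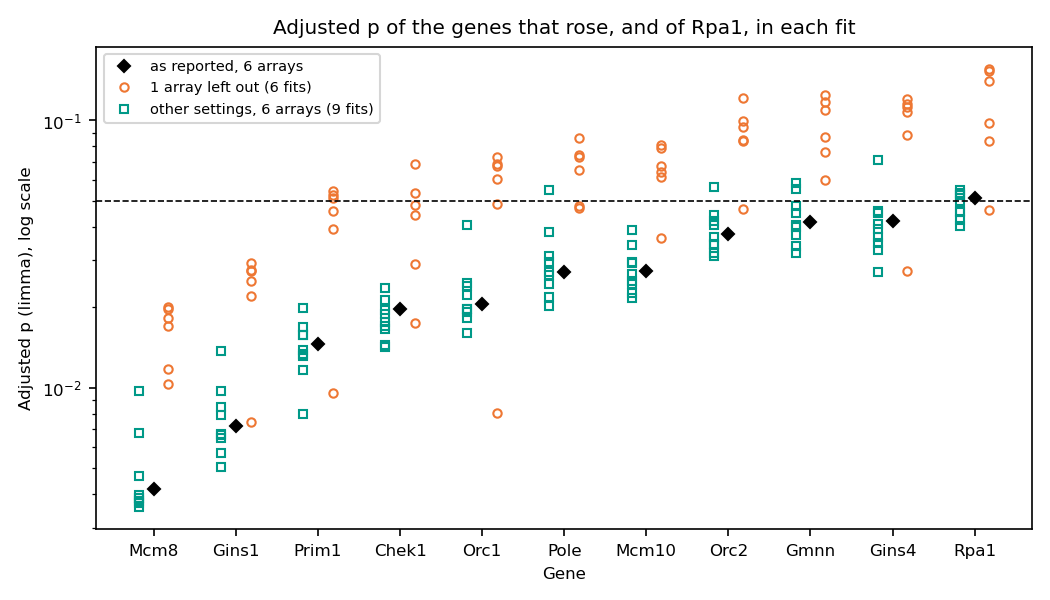
Adjusted p from limma, on a log scale, of the 10 genes that rose and of Rpa1, as reported (diamonds), with 1 array left out (circles, 6 fits) and under the other settings with all 6 arrays (squares, 9 fits). The dashed line is 0.05. Mcm8 and Gins1 lie under it in all fits drawn, while all 6 circles of Gmnn and 5 of 6 of Gins4, Mcm10 and Orc2 lie above it.

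Genes outside the 45 were read from further lists of replication genes and of E2F factors with their regulators. Of 65 measured, 13 rose and 0 fell, beside 2.71% of all genes that rose, and the median difference was 0.31. Above 0 were 50 of 65 (76.9%), beside 44 of the 45 and 61.1% of all genes. Among 16 further initiation genes 4 rose: Ticrr, which encodes the CDC45-loading factor treslin, by 1.10 (2.14-fold, limma adjusted p = 0.0144), Rif1, a regulator of replication timing, by 0.86 (0.00758), and Dbf4 and Mcm9 as given above. Among 19 further fork genes 6 rose, those with the smallest p being Atr, the nuclease-helicase gene Dna2 (0.94, limma adjusted p = 0.00930), the polymerase delta subunit gene Pold3 (0.70, 0.0417) and the small replication protein A subunit gene Rpa3 (0.84, 0.0430). Among 14 nucleotide and chromatin supply genes 2 rose, the chromatin remodeller gene Hells by 0.78 (0.0212) and the dUTPase gene Dut by 0.59 (0.0408). Among 16 genes of E2F factors and their regulators 1 rose, Tfdp2, which encodes an E2F partner, by 0.73 (0.0253), and 68.8% of that list were above 0, near the share of all genes. With 1 array left out the 13 became 3 to 8, and Atr, Rif1 and Dna2 passed in all 6 of those fits. Ticrr and Tfdp2 passed in 2 of them, Dbf4, Pold3 and Hells in 1, and Rpa3, Dut and Mcm9 in 0.

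**Figure D5:**
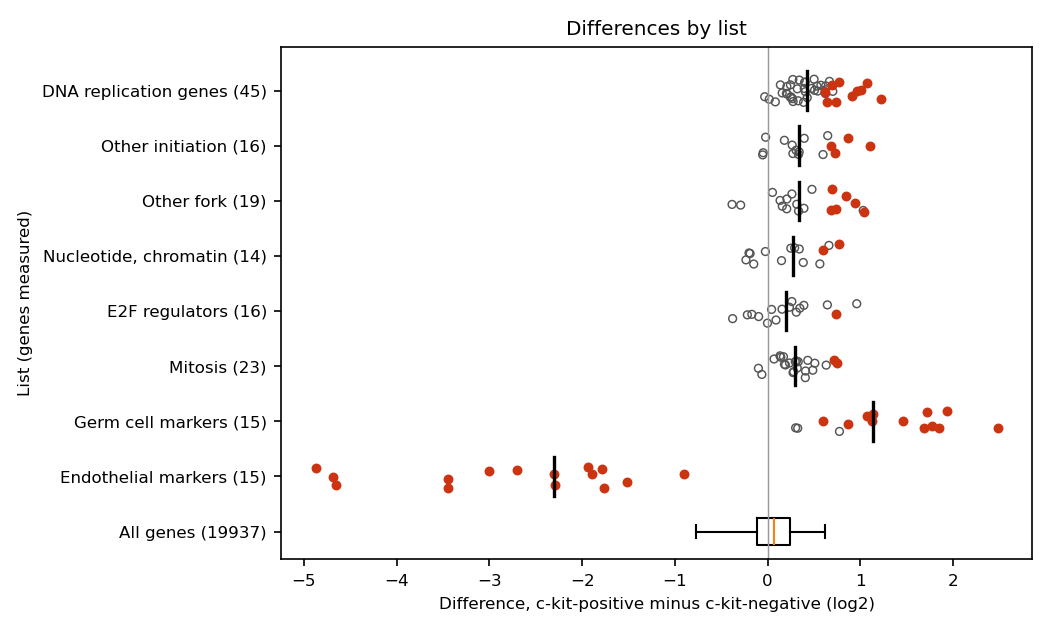
Difference in log2 units, c-kit-positive minus c-kit-negative, of each gene by list. The lists are the 45, the further replication genes, the E2F regulators, mitosis and 2 marker lists. Filled points are past the threshold, and a black bar marks each median. The last row shows all 19937 genes, with a box of the quartiles and whiskers from the 5th to the 95th percentile. Medians were 0.43 for the 45 genes and 0.30 for mitosis, beside 1.13 for germ cell markers, -2.31 for endothelial markers and 0.07 for all genes.

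Genes of mitosis, a later stage of the same cycle, were read beside them. Of 23 mitotic genes 2 rose, the spindle checkpoint kinase genes Bub1 and Ttk, beside 2.71% of all genes. Of the 23, 21 were above 0, beside 61.1% of all genes, and the median difference was 0.30, beside 0.43 for the replication genes. The array medians of the mitotic list were 8.76, 8.82 and 8.97 in c-kit-positive cells, against 8.59, 8.50 and 8.73 in c-kit-negative cells, which do not overlap. The difference between the lists was not tested.

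Of the 45 genes, 37 had at least 1 promoter window in the RefSeq table. The E2F letters spelled out above were in the windows of 15 of the 37 (40.5%), beside 543 of 15613 genes in all (3.48%). Of the genes that rose and had a window, 2 of 6 held them, Orc1 and Mcm8. Of those that did not pass, 13 of 31 held them. The CCAAT letters, also read as ATTGG, were in 23 of 37 (62.2%), beside 41.7% of all genes, and in 5 of the 6 that rose. The cell-cycle element TTTGAA, also read as TTCAAA, was in 6 of 37 (16.2%), beside 17.3%, and in 0 of the 6. The shares are descriptions of these windows, and neither comparison of shares was tested.

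Several replication genes share a start region with a neighbour on the other strand. Of the 11 with such a neighbour within 1000 bases, 7 had a measured partner, and 0 of the 7 partners passed. That is little apart from the 2.71% of all genes that rose and the 4.70% that fell. The count is thus no result about the partners. Ufd1, whose start lies 322 bases from that of Cdc45, differed by 0.58 (limma adjusted p = 0.0683). Prpf38a, 118 bases from Orc1, differed by 0.31 (-0.02 to 0.63) beside 0.97 for Orc1. Ap4m1, 138 bases from Mcm7, differed by 0.47, and Rars2, 15 bases from Orc3, by 0.62. Smyd4 beside Rpa1 differed by 0.25, Tmem258 beside Fen1 by -0.17 and Zswim9 beside Lig1 by -0.28. The partners thus lay on both sides of 0, and whether they differ from the replication genes was not tested.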

How the data were processed

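Total RNA of 6 sorted samples was measured, 5 ng of each being amplified and hybridised to 1 whole-transcript array. The deposited values are log2 values that the authors made with RMA, per the submitters' processing notes, which corrects background, equalises the arrays and summarises probes. Its settings and version are not given in these sources. Amplification and array background can compress differences. The values ran from 1.22 to 13.7, and the table carries no detection calls, so the number of arrays limits the precision and no level is called absent.

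Of 34760 probe sets, the platform annotation gave 21640 a single gene symbol, 1321 several and did not list 11799, which stay unnamed. They covered 19937 genes, of which 954 had more than 1 probe set. The one with the highest mean over the 6 arrays was used. The difference between populations was fitted by limma 3.58.1 (R 4.3.3) without filter or block, tested two-sided with eBayes, and adjusted by Benjamini-Hochberg across the 19937 genes. An exact permutation test of 3 against 3 arrays cannot go below 0.1, so none was run. The test was checked on simulated data, where most added changes of 0.5 or 1 log2 unit were not recovered. Far fewer genes were changed there than passed in the data, which makes the adjusted threshold stricter. The recovery therefore does not carry over to these arrays. The 45 genes and the other lists were chosen with earlier results of these data known. Per-array values are given for genes past the threshold and for the largest difference of each role group, and for others chosen after their values were seen. Of the further pathway genes, those past the threshold are named, at most 4 per list. Correlations between arrays ran from 0.976 to 0.981 within and from 0.946 to 0.953 between populations.

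The replicate numbers were not treated as pairs, because the labels state no pairing. Deviations of same-numbered arrays from their population means correlated at 0.000710, 0.0239 and 0.0590. Those of arrays with different numbers ran from -0.0570 to 0.0359. With 3 arrays a population these values cannot settle whether the numbers pair samples. Alternatives tried were quantile normalization, median centring, a filter on the dimmest genes, other probe set rules, a trended robust prior, array weights, a replicate block, other thresholds and each array left out. Promoter windows are RefSeq sequence of GRCm38.p6, and no genome was used. Figures were drawn with matplotlib 3.10.9.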

Additional observations from a re-analysis of the deposited data

How the results depend on the processing

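Of the 45 replication genes, 0 fell under any alternative. The count that rose was 10 with median centring, with the most variable probe set and with array weights, 12 with quantile normalization, 11 without the dimmest 30% or 50% of genes and with the mean of probe sets, and 9 with a trended robust prior, which lost Gmnn. With the replicate block it was 7, losing Gins4, Gmnn, Orc2 and Pole and gaining Rpa1. Of the 65 further replication genes and E2F regulators 7 rose with the block, against 13 without it. The labels do not say whether the replicate numbers pair the samples, and the correlations cannot settle it. At an adjusted p under 0.01 the counts were 2 of the 45 and 3 of the 65 further genes. Over all genes they were 131 higher and 499 lower, and under 0.1 981 genes were higher. With each array left out, the counts ran from 4 to 7 for the 45 and from 3 to 8 for the 65 further genes. For all genes that rose they ran from 276 to 369. Median differences then ran from 0.38 to 0.49 for the 45 genes, 0.37 to 0.56 for licensing, 0.43 to 0.61 for the helicase, 0.19 to 0.53 for the clamp and 0.042 to 0.22 for the nucleotide enzymes. The fits with an array left out have fewer samples, and the cause of the other changes was not tested. Signs turned only for genes near 0: with an array left out Gins2 ran from -0.042 to 0.47, Gins3 from -0.49 to 0.37, Pola2 from -0.16 to 0.36 and Rrm1 from -0.12 to 0.22, and Rrm1 was -0.017 with quantile normalization. With 3 arrays a population, a difference that missed the threshold is not shown to be absent.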
